A study of Mus musculus with 5 samples.

Results

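CD26+ progenitor cells of subcutaneous fat (SAT) were compared with CD26+ progenitor cells of visceral fat (VAT) by RNA sequencing. The comparison sets 1 library against 1 library, chosen by library name among the 5 libraries of the series. SAT_CD26_2 (SAT CD26 below) stands for subcutaneous fat and VAT_CD26CD142_2 (VAT CD26CD142 below) for visceral fat. The source was wild-type mice on a chow diet, 30 animals aged 12 to 14 weeks, whose stromal vascular cells were sorted by flow cytometry after CD31+ and CD45+ cells had been gated out. The labels do not say how the animals were pooled over the libraries. The title of the SAT library gives the opposite gate, CD26-CD142+, whereas its library name gives CD26; title and name of the VAT library both give CD26+CD142+. By name, therefore, the gates differed in CD142 as well as in depot, and depot and CD142 status cannot be told apart between these 2 libraries. The other libraries, named for CD142, were 1 from SAT (SAT CD142, titled CD26+CD142-) and 2 from VAT (VAT CD142 libraries 1 and 2, titled CD26-CD142+). With 1 library a side there is no replicate check, so no p-value is given for the comparison of the CD26 libraries.

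CD26, the dipeptidyl peptidase encoded by Dpp4, marks interstitial progenitors, which lie in the connective tissue sheath around fat lobules and give rise to more committed preadipocytes. CD142 is tissue factor, the trigger of blood clotting encoded by F3, and marks a progenitor population known as Aregs, which has been described as restraining fat cell formation. Subcutaneous and visceral fat arise from different mesoderm, and their progenitors are known to keep separate sets of developmental transcription factors, with Tbx15 typical of subcutaneous and Wt1 of visceral fat. The surface of visceral fat is covered by mesothelium, an epithelium-like layer that also expresses Wt1.

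Total counts were 22259327 in SAT CD26 and 22477559 in VAT CD26CD142, and ran from 21706345 to 25357403 over the 5 libraries. Levels are counts scaled to a fixed library total by the trimmed mean of M values (CPM), and intervals in parentheses are 95% intervals that cover counting error only. Mitochondrially encoded genes took 0.554% and 0.620% of the counts in the CD26 pair and 0.633% in VAT CD142 library 2, the libraries numbered 2, but 2.83% in SAT CD142 and 4.33% in VAT CD142 library 1, both numbered 1. A gene counts as measured here if its mean over both CD26 libraries was at least 5 CPM, which 10403 of 54532 genes reached, and as apart if it differed at least 2-fold on the log2(CPM + 1) scale. That scale understates the difference of low genes.

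Of the measured genes, 898 (8.63%) were at least 2-fold apart, 419 (4.03%) higher in SAT CD26 and 479 (4.6%) lower. The same rule set 980 of 10488 genes (9.34%) apart between VAT CD142 libraries 1 and 2, which share depot and gate but differ in library number and in mitochondrial share, unlike the CD26 pair, which is numbered 2 on both sides. The part of these in that count was not tested. A 2-fold difference was thus no more frequent between depots than between those 2 libraries. Larger differences were more frequent: 317 genes (3.05%) were at least 4-fold apart between the CD26 libraries and 87 (0.83%) between the VAT CD142 pair. At 8-fold there were 138 (1.33%) and 13 (0.124%), and at 16-fold 66 (0.634%) and 0. Differences of 2- to 4-fold below are of a size that this pair of unlike number also showed. The median log2 difference over all measured genes was 0.02. Counts of list members apart below are to be read beside the 8.63% of all measured genes that were apart. A list near that share is not set off from the other genes.

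**Figure D1:**
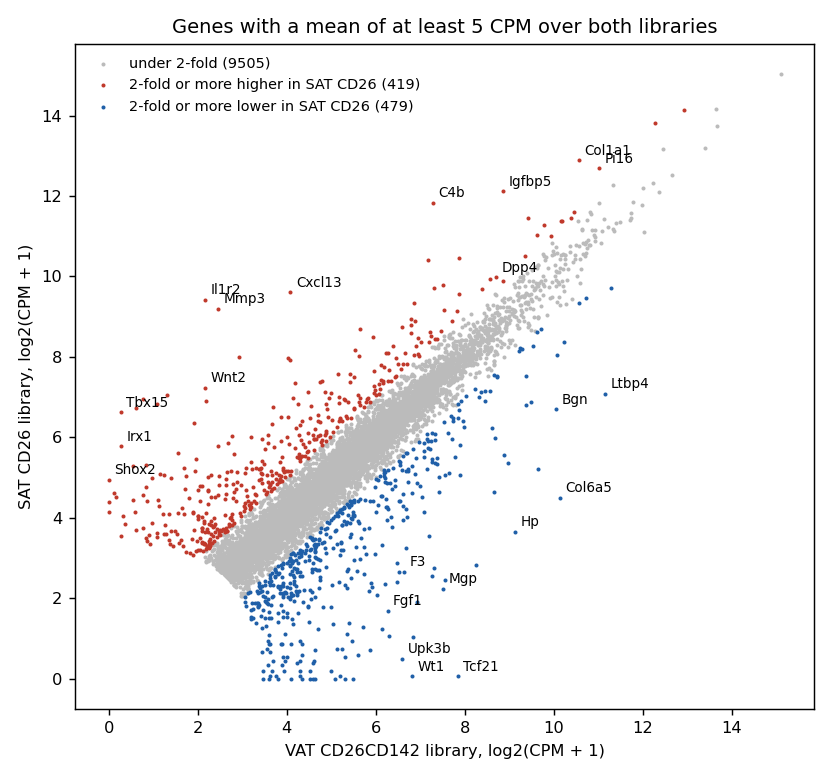
Level of each of the 10403 measured genes in the VAT CD26CD142 library (x axis) and the SAT CD26 library (y axis), both as log2(CPM + 1). Red points (419 genes) were at least 2-fold higher and blue points (479 genes) at least 2-fold lower in SAT CD26; Tbx15, Shox2 and Irx1 lie at the left edge, Wt1 and Tcf21 at the bottom.

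The gate gene and the depot genes were read first. Dpp4 (ENSMUSG00000035000), which in mm10 spans chromosome 2, 62330073 to 62412231, had a level of 1007 CPM (994 to 1020.1) in SAT CD26. In VAT CD26CD142 it was at 417 CPM (409 to 425), against 6.58 CPM in SAT CD142 and 5.13 and 6.58 CPM in the VAT CD142 pair. Both CD26 libraries thus stood far above the others, with SAT CD26 the higher by 2.41-fold (2.36 to 2.47). F3 was at 5.32 against 99.1 CPM, an 18.6-fold (15.5 to 22.6) lower level in SAT CD26, while the libraries named for CD142 held 618, 379 and 241 CPM. The Dpp4 and F3 levels of the SAT libraries go against their titles.

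Tbx15 (ENSMUSG00000027868, chromosome 3, 99240381 to 99354259), a T-box gene typical of subcutaneous adipose precursors, had 2156 counts and a level of 97.2 CPM (93.2 to 101) in SAT CD26 and 0.206 CPM (0.0669 to 0.481) in VAT CD26CD142. VAT CD26CD142 held 5 counts, so the level was 472-fold (202 to 1455) higher in SAT. It was also at 129 CPM in SAT CD142 and at 0.275 and 0.129 CPM in the VAT CD142 pair, so that both SAT libraries lay far above all VAT libraries. Wt1 (ENSMUSG00000016458, chromosome 2, 105126529 to 105173616), a zinc finger factor of visceral mesoderm and mesothelium, was the mirror image. It had 1 count in SAT CD26 (0.0451 CPM) and 2720 counts in VAT CD26CD142 (112 CPM), a ratio of 2486 with a counting interval of 446 to 98210.0. SAT CD142 was at 0 and the VAT CD142 pair at 113 and 154 CPM. Tcf21 (chromosome 10, 22817281 to 22820174), a basic helix-loop-helix factor of visceral mesenchyme, likewise had 1 count against 5556 (0.0451 and 229 CPM; ratio 5077, counting interval 911 to 200571). Tcf21 was at 1.25 CPM in SAT CD142 and 212 and 223 CPM in the VAT CD142 pair, again without overlap of the depots.

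Of 14 measured members of a list of 18 subcutaneous and limb developmental factors, 11 were at least 2-fold higher in SAT CD26 and 1 was lower, with a median log2 difference of 3.40 (all measured genes: 0.02). The median was 1.15 over the 6 members with a mean of at least 20 CPM and 2.09 with a pseudocount of 5 CPM. Over the 16 members with a mean of at least 1 CPM it was 2.81. Members near 0 in VAT CD26CD142, such as Shox2, reach the level minimum through SAT CD26 alone. The size of the median thus depends in part on that filter. Shox2, a homeobox gene of limb growth, was at 29.7 CPM in SAT CD26 and had 0 counts in VAT CD26CD142. Against a floor of 3 counts in that library it was at least 240.4-fold higher. Irx5 also had 0 counts in VAT CD26CD142, against 16.8 CPM (at least 136-fold). Its Iroquois relatives Irx1 and Irx2, homeobox genes of early patterning, were at 54.1 against 0.206 CPM (262-fold, interval 112 to 809.7) and 37.8 against 0.453 CPM (83.3-fold, interval 46.3 to 167). Tbx5, a factor of the forelimb field, was at 23.4 against 0.0824 CPM, higher in SAT CD26 than in SAT CD142 (2.90 CPM), and at 0 in both VAT CD142 libraries. En1, a homeobox gene of dorsal dermis and limb ectoderm, was at 25.3 against 2.27 CPM (11.1-fold, interval 8.44 to 15.0). The exception was Alx4, lower in SAT CD26 at 2.66 against 9.15 CPM. Msx1, Twist1 and Hoxc9 were between 2.20- and 2.32-fold higher, a size that was common between the VAT CD142 libraries. Pitx1, the hindlimb factor, was under the level minimum but had 0 counts in VAT CD26CD142 against 4.24 CPM in SAT CD26 (at least 34.3-fold higher).

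On the visceral side, 7 of 17 listed factors were measured, and 5 were lower in SAT CD26 (median -1.16). Besides Wt1 and Tcf21 these were Hoxa5 at 5.41 against 40.2 CPM, the zinc finger gene Gata6 at 35.3 against 76.5 CPM and the nuclear receptor gene Nr2f1 at 10.1 against 23.9 CPM. Osr1, an early mesoderm factor, was at 281 against 252 CPM and did not separate the libraries. The HOX genes that were apart divided by position in their clusters. Hoxc10 (22.7 against 0.701 CPM, 32.4-fold, interval 20.1 to 56.1), Hoxa10 (12.5 against 0.701 CPM) and Hoxa9 (13.2 against 1.40 CPM), from the posterior end, were higher in SAT CD26, whereas Hoxa5 and Hoxa3 (5.32 against 12.5 CPM) were lower. In all, 4 of 16 measured HOX genes were higher and 2 lower, and the rest, such as Hoxc6 at 26.9 against 29.5 CPM, lay under 2-fold.

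**Figure D2:**
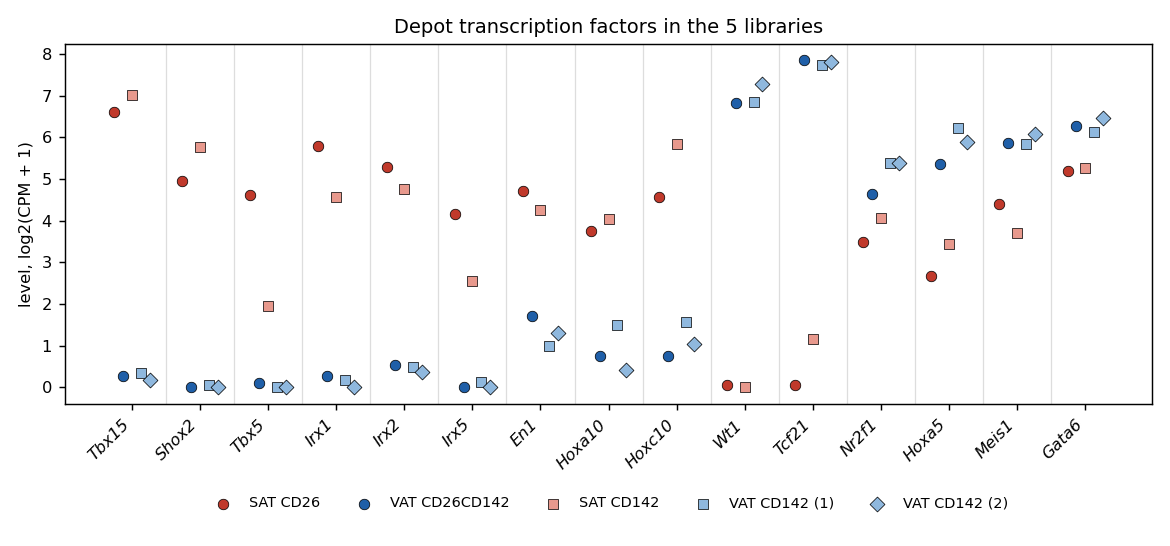
Level, as log2(CPM + 1), of 15 depot transcription factor genes in each of the 5 libraries (1 point per library; red shades SAT, blue shades VAT; circles are the CD26 libraries). For Tbx15, Shox2, Irx1, Irx2, En1 and Hoxc10 both SAT libraries lie above all 3 VAT libraries, and for Wt1, Tcf21, Hoxa5 and Meis1 below them.

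The authors' table assigns a transcription factor family to 702 of the measured genes, of which 36 were higher in SAT CD26 and 33 lower (9.83% apart). Homeobox genes had the most members apart, with 14 of 51 higher and 6 lower (39.2%), whereas of 281 C2H2 zinc finger genes 3 were higher and 6 lower (3.2%). The factors named in this paragraph and the next that are on no list were chosen after their values were seen. Emx2, a homeobox gene best known from urogenital and forebrain development, was at 56.9 against 5.40 CPM (10.5-fold, interval 8.80 to 12.7) but at only 6.19 CPM in SAT CD142, near the VAT CD142 values of 2.80 and 4.64 CPM. Lmx1a was at 26.4 against 3.30 CPM. Meis1, a HOX cofactor gene, was at 20.2 against 57.4 CPM.

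Factors outside the homeobox family also differed. Osr2, an odd-skipped relative of Osr1, was at 252 against 15.4 CPM (16.3-fold, interval 14.7 to 18.2), above the 28.1 CPM of SAT CD142. Irf4, an interferon regulatory factor known in adipocytes for its part in lipolysis, was at 136 against 30.8 CPM (4.42-fold, interval 4.08 to 4.79), and the estrogen receptor gene Esr1 at 88.0 against 21.9 CPM (4.01-fold, interval 3.64 to 4.43). E2f7, an atypical E2F repressor of the cell cycle, was at 36.8 CPM in SAT CD26 and between 0.389 and 2.23 CPM in the other 4 libraries. In the other direction Tcf23, a helix-loop-helix relative of Tcf21, was at 0.135 against 14.4 CPM from 3 counts in SAT CD26 (ratio 107, counting interval 36.2 to 519). Myrf, known as a regulator of myelin genes, was at 0.316 against 17.9 CPM. All 3 measured members of the Nr4a nuclear receptor family, which are early response genes, were lower in SAT CD26: Nr4a1 at 642 against 1511 CPM, Nr4a3 at 34.6 against 102 CPM and Nr4a2 at 6.36 against 15.1 CPM. Nr4a3 also differed between VAT CD142 libraries 1 and 2 (36.1 and 201 CPM).

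Markers of progenitor states were compared next. All 22 listed interstitial markers were measured; 8 were at least 2-fold higher in SAT CD26, 0 lower (median 0.57). Pi16, a peptidase inhibitor gene that marks this state across tissues, was at 6594 against 2083 CPM, with 64.1 CPM in SAT CD142 and 333 and 277 CPM in the VAT CD142 pair. The calcium-binding protein gene Anxa3 (948 against 467 CPM) and Sbsn (352 against 123 CPM) followed the same order. Cd55, a complement regulator and sorting marker of the state, was at 507 against 755 CPM and Fbn1, fibrillin of elastic microfibrils, at 2219 against 4179.9 CPM, both under 2-fold and both well above the libraries named for CD142. The SAT and VAT libraries thus both carried the marker set, and apart from Wnt2 and Gap43 its members differed by at most 3.17-fold.

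Areg markers differed in both directions, and the preadipocyte markers that were apart were lower in SAT CD26. Of 12 measured Areg markers 6 were lower, among them the gate gene F3 itself, and 3 higher (median -0.75). Of 14 preadipocyte markers 7 were lower and 0 higher (median -1.10). Mgp, an inhibitor of matrix calcification, was at 3.70 against 183 CPM (49.4-fold, interval 39.7 to 62.3), and at 688, 820.2 and 624 CPM in the libraries named for CD142. Fmo2, a flavin monooxygenase gene, was at 45.9 against 471 CPM, and the small proteoglycan gene Bgn at 103 against 1064 CPM. Among preadipocyte genes, the amine oxidase gene Aoc3 was at 16.7 against 134 CPM, the collagen gene Col15a1 at 32.3 against 239 CPM and Fabp4, a fatty acid carrier, at 25.1 against 81.1 CPM. For all these genes VAT CD26CD142 lay between SAT CD26 and the CD142 libraries. The 3 Areg markers that were higher in SAT CD26 were the IGF binding protein gene Igfbp3 (285 against 45.5 CPM), the ephrin receptor gene Epha3 (33.9 against 5.32 CPM) and the matrix protease gene Adamts15 (117 against 57.2 CPM). Of 16 general mesenchymal progenitor markers 5 were higher in SAT CD26 and 1 lower (median 0.04). Cd34 (1859.8 against 1686 CPM), Pdgfra (892 against 1108 CPM) and Pdgfrb (141 against 142 CPM) were nearly level. The surface protein gene Ly6a (Sca-1) was at 2040.3 against 982 CPM. In bulk samples, fewer cells of a type and less RNA per cell cannot be told apart, and the gates differ in CD142 by name.

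Mesothelial markers differed most. All 14 measured members of 19 were lower in SAT CD26, with a median of -4.26, or -2.42 with a pseudocount of 5 CPM. With a mean of at least 1 CPM all 18 measured were lower (median -3.55), and with at least 20 CPM all 4 (median -4.77). Members near 0 in SAT CD26, such as Msln, reach the level minimum through VAT CD26CD142 alone. The medians thus depend in part on that filter. Summed over the list, the markers made 30.4 CPM in SAT CD26 and 639.7 CPM in VAT CD26CD142. The sum was 297 CPM in SAT CD142 and 368 and 391 CPM in the VAT CD142 pair. Msln, mesothelin of the mesothelial surface, had 0 counts in SAT CD26 and 38.5 CPM in VAT CD26CD142 (at least 284-fold lower), with 0.779 and 2.41 CPM in the VAT CD142 pair. Upk3b, a uroplakin gene of mesothelium, was at 0.406 against 96.2 CPM (237-fold, interval 125 to 519) and at 0.321 and 8.43 CPM in that pair. Lrrn4 had 0 counts against 23.9 CPM, and the protease inhibitor gene Slpi was at 0.451 against 38.7 CPM. In SAT CD26, 6 of the 19 listed genes had 0 counts, in VAT CD26CD142 none. Pkhd1l1, a large membrane protein gene that is on no list, had the same pattern, with 0 counts in SAT CD26, 43.8 CPM in VAT CD26CD142 and 0 and 2.62 CPM in the VAT CD142 pair. In VAT CD142 library 1 the members of the mesothelial list were uneven. The whole list summed to 368 CPM there, while Msln, Upk3b and Slpi were each under 1 CPM and Lrrn4 and Upk1b had 0 counts. Wt1 was at 113 CPM in that library, Tcf21 at 212 CPM and Col6a5 at 1835 CPM. The part of mesothelial RNA in the depot difference was not tested. In SAT CD142 the mesothelial sum came from genes of other epithelia as well, such as Krt19 (63.7 CPM), and mammary and skin epithelial markers summed to 101 CPM there. Of other cell types, endothelial markers summed to 335 and 317 CPM, of which Tek gave 290.4 and 286 CPM and the defining marker Pecam1 7.26 and 4.70 CPM. Macrophage markers summed to 16.2 and 29.3 CPM. Lymphocyte, erythrocyte and mammary or skin epithelial markers each summed to under 10 CPM in both CD26 libraries. Other sums did differ. Skeletal muscle markers summed to 23.004 CPM in SAT CD26 against 107 CPM in VAT CD26CD142, and 1 of 2 measured was lower. Mural cell markers summed to 58.3 against 121 CPM, with 1 of 4 measured higher and 1 lower. Schwann cell markers summed to 58.5 against 18.01 CPM, and the 1 measured was higher. The part of such cells in the depot difference was not tested.

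**Figure D3:**
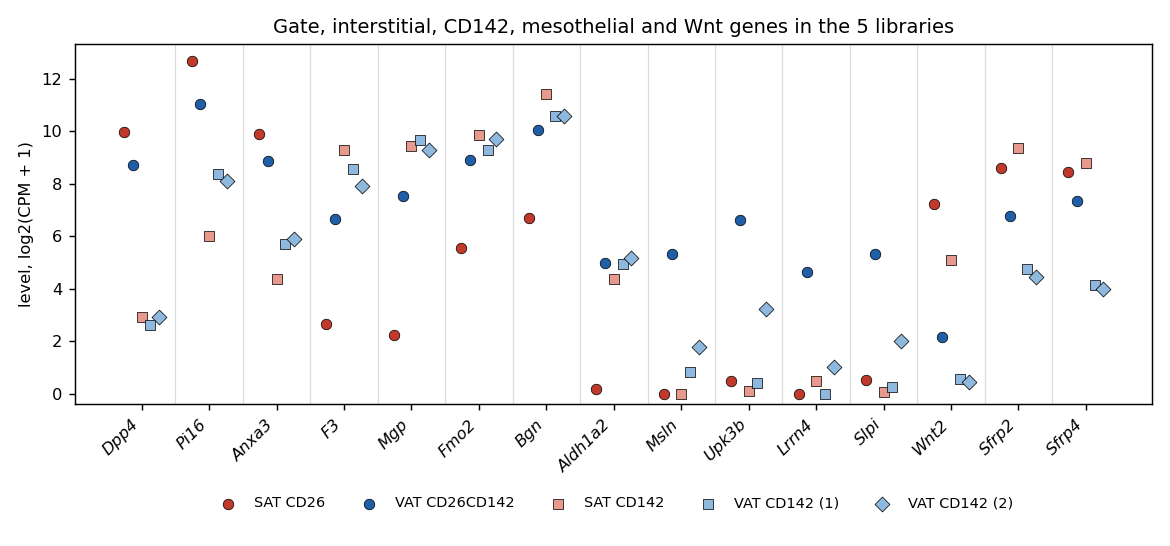
Level, as log2(CPM + 1), of 15 genes in each of the 5 libraries (1 point per library; red shades SAT, blue shades VAT; circles are the CD26 libraries). Dpp4, Pi16 and Anxa3 are high in both CD26 libraries, F3, Mgp, Fmo2 and Bgn are lowest in SAT CD26, and Msln, Upk3b, Lrrn4 and Slpi are highest in VAT CD26CD142.

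Wnt genes differed as single members rather than as a set. Wnt2 (ENSMUSG00000010797, chromosome 6, 17988940 to 18030585), a ligand of the canonical pathway and an interstitial marker, was at 149.7 CPM (145 to 155) in SAT CD26 and 3.50 CPM (2.80 to 4.33) in VAT CD26CD142, 42.7-fold (34.4 to 53.6) higher. It was at 33.4 CPM in SAT CD142 and at 0.458 and 0.344 CPM in the VAT CD142 pair, so it was higher in SAT within both gates and higher in the CD26 library within both depots. The other ligands called were lower: Wnt2b at 3.38 against 16.0 CPM and Rspo1, an R-spondin that amplifies Wnt signals and is also a mesothelial marker, at 8.48 against 101 CPM (11.9-fold, interval 10.3 to 13.9). Wnt10b (106 against 63.9 CPM), a ligand that restrains adipogenesis, and Wnt11 (95.7 against 77.3 CPM) lay under 2-fold. Of 9 measured antagonists 3 were higher in SAT CD26 and 2 lower. Dkk2, an LRP-binding inhibitor, was at 54.4 against 4.49 CPM (12.1-fold, interval 9.95 to 14.9), and the secreted Frizzled-related genes Sfrp2 and Sfrp4 were at 387 against 109 CPM and 346 against 161 CPM. Their relative Sfrp1 ran the other way at 88.2 against 229 CPM. Among 16 receptors and target genes, the inhibitor Apcdd1 was higher (52.3 against 17.1 CPM) and the receptor Ror1 lower (12.3 against 52.1 CPM). Axin2, a common readout of canonical signalling, was at 12.3 against 22.9 CPM, under 2-fold and in the direction opposite to Wnt2.

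In the TGF-beta and BMP family, 2 of 12 measured ligands were higher in SAT CD26 and 3 lower. Bmp3, which opposes other BMPs, was at 26.1 against 0.783 CPM (33.3-fold, interval 21.2 to 55.8), and under 1 CPM in all 3 libraries named for CD142. Inhbb, the beta B subunit of activin and inhibin, was at 10.6 against 145 CPM (13.7-fold lower, interval 12.0 to 15.7) and Bmp6 at 36.3 against 142 CPM. Among the antagonists, the chordin-like gene Chrdl1 was at 242 against 15.9 CPM (15.2-fold, interval 13.7 to 17.0), with 428 CPM in SAT CD142 and 25.8 and 30.5 CPM in the VAT CD142 pair. Follistatin, Fst, was at 444 against 111 CPM, while the BMP-binding protein gene Bmper was lower at 40.6 against 152 CPM. None of 12 measured BMP receptors and ID target genes was 2-fold apart.

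Matrix genes separated by type. Of 10 fibrillar and fibril-associated collagens, 4 were higher in SAT CD26 and 1 lower. The chains of type I collagen, the main tensile fibre, were at 7561 against 1513 CPM (Col1a1) and 14514 against 4953 CPM (Col1a2), and Col3a1 was at 18057 against 7778 CPM. SAT CD142 held more of each, 14812, 28069 and 41434 CPM. Col12a1, a fibril-associated collagen, was at 168 against 26.9 CPM (6.23-fold, interval 5.73 to 6.78) and under 20 CPM in the libraries named for CD142. Basement membrane and collagen VI genes went the other way in the CD26 pair, with 11 of 22 lower in SAT CD26 and 0 higher (median -0.85). Summed, these genes made 27001 CPM in SAT CD26 and 31157 CPM in VAT CD26CD142. In the CD142 libraries their sum was higher in SAT, at 43336 CPM against 29748 and 39554 CPM.

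Among them Col6a5, a collagen VI chain, was at 21.6 CPM (479 counts) in SAT CD26 and 1132 CPM (27457 counts) in VAT CD26CD142, 52.4-fold (47.9 to 57.5) lower. SAT CD142 was at 17.6 and the VAT CD142 pair at 1835 and 4421 CPM, so the depots did not overlap. Its neighbour in the family Col6a6 was at 118 against 352 CPM, whereas Col6a1 (2100.4 against 1933 CPM) and Col6a2 (1534 against 1697 CPM) were nearly level. Of the type IV chains, the network of the basement membrane, Col4a6 was at 5.32 against 91.5 CPM, Col4a2 at 329.6 against 1209 CPM and Col4a1 at 839.9 against 2502 CPM. Ltbp4, which tethers latent TGF-beta to elastic fibres, was at 135 against 2270.1 CPM (16.8-fold lower, interval 16.2 to 17.5), but VAT CD142 libraries 1 and 2 also stood apart from each other at 831 and 3037 CPM. Mfap4, a microfibril gene, was at 1.58 against 31.8 CPM.

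Single matrix genes with large differences were Fmod at 0.496 against 47.5 CPM, a small proteoglycan of collagen fibrils, and Cilp at 6.13 against 305 CPM, a cartilage matrix protein. Hmcn1, a giant matrix fibulin relative, was at 0.631 against 57.8 CPM. Of 10 small proteoglycans 1 was higher and 4 were lower, and of 15 elastic fibre genes 1 was higher and 3 were lower. Higher in SAT CD26 were Prg4, the lubricating proteoglycan lubricin, at 255 against 6.64 CPM (38.5-fold, interval 32.9 to 45.3), and Fndc1, a fibronectin type III domain gene, at 2662 against 1146 CPM. Mmp3, stromelysin, which cleaves many matrix proteins, was at 588 CPM (578 to 598) against 4.49 CPM (3.69 to 5.42), 131-fold (108 to 159.5) higher. It reached 1649 CPM in SAT CD142 and 15.8 and 15.7 CPM in the VAT CD142 pair. The gelatinase gene Mmp2 was at 2799 against 688 CPM, the metalloproteinase inhibitor Timp1 at 44.7 against 13.8 CPM and the crosslinking enzyme Loxl4 at 138 against 28.1 CPM. Of 23 measured matrix proteases, inhibitors and crosslinkers, 5 were higher and 3 lower.

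Immune genes held several of the largest differences. Il1r2 (ENSMUSG00000026073, chromosome 1, 40074079 to 40125231), a decoy receptor that binds interleukin 1 without signalling, was at 684 CPM (674 to 695) in SAT CD26 and 3.46 CPM (2.76 to 4.29) in VAT CD26CD142, 198-fold (159.5 to 248) higher. It was at 101 CPM in SAT CD142 and at 2.06 and 2.37 CPM in the VAT CD142 pair. Il1rl1, the receptor for interleukin 33, which lies close to Il1r2 on chromosome 1, was at 122 against 0.701 CPM (175-fold, interval 109 to 300.2). Its ligand Il33, an alarmin made by fat stromal cells, was at 191 against 34.7 CPM (5.50-fold, interval 5.11 to 5.93), with 63.0 CPM in SAT CD142 and 27.6 and 21.1 CPM in the VAT CD142 pair. Ligand and receptor were both higher in both SAT libraries than in any VAT library.

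Of 15 measured chemokines and atypical receptors 5 were higher in SAT CD26 and 1 lower. Cxcl13, which attracts B cells, was at 782 CPM (771 to 794) against 16.0 CPM (14.4 to 17.6) (49.1-fold, interval 44.3 to 54.4), the largest difference of the list. Ccl8 was at 20.7 against 1.15 CPM (18.0-fold, interval 12.3 to 27.4), and the monocyte chemokine Ccl7 at 273 against 74.2 CPM. The scavenging receptor gene Ackr4 ran the other way at 5.37 against 47.1 CPM. Ccl2 (281 against 224 CPM) and Cxcl1 (575 against 611 CPM) were nearly level. C4b, a component of the classical complement pathway, was at 3644 against 155 CPM (23.5-fold, interval 22.7 to 24.3); reads of its near copy C4a could be split between them. Haptoglobin, Hp, was lower in SAT CD26 at 11.5 against 561 CPM (48.6-fold, interval 42.9 to 55.2), and the depots did not overlap, with 42.9 CPM in SAT CD142 and 567 and 658 CPM in the VAT CD142 pair. Akr1c18, an enzyme that inactivates progesterone, and Itgb7, an integrin chain best known from gut-homing lymphocytes, were high in SAT CD26 alone, at 112 against 1.11 CPM and 131 against 1.48 CPM, with at most 0.86 CPM of either in the libraries named for CD142.

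Interferon response genes formed a set of moderate differences in 1 direction. Of 28 measured genes 12 were at least 2-fold higher in SAT CD26 and 0 lower, and all 28 had a log2 difference above 0, with a median of 0.96. Summed, the list made 1907 CPM in SAT CD26 and 988 CPM in VAT CD26CD142, and 1564 CPM in SAT CD142 against 997 and 837 CPM in the VAT CD142 pair. The largest was Zbp1, a sensor of Z-form nucleic acids, at 89.5 against 15.3 CPM (5.84-fold, interval 5.22 to 6.54). The antiviral genes Oas2 and Oas1a were at 28.4 against 6.39 CPM and 33.5 against 7.38 CPM, the ubiquitin-like modifier Isg15 at 41.4 against 9.81 CPM and its protease Usp18 at 63.3 against 15.1 CPM. Igtp, a GTPase of the immunity-related family, was at 59.1 against 13.6 CPM. Irf1, an early interferon-induced factor, was at 139 against 113 CPM and so under 2-fold.

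Interferons act through factors that bind the interferon-stimulated response element, in which GAAA occurs as a pair spaced by 2 bases. The 250 bases before the start of the 3 interferon genes with the largest log2 differences that have an entry in the RefSeq promoter table (build GRCm38.p6) are shown with each match to GAAANNGAAA, searched on both strands, in capitals. Overlapping matches run together. The sequence of each is written along the strand of its gene.
Igtp (chr11:58199306-58199555, + strand): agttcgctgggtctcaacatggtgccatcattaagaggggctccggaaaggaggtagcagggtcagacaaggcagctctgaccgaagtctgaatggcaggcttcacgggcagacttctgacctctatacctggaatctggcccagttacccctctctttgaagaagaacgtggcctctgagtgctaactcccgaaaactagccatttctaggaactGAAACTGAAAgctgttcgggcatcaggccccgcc
Oas1a (chr5:120907526-120907775, - strand): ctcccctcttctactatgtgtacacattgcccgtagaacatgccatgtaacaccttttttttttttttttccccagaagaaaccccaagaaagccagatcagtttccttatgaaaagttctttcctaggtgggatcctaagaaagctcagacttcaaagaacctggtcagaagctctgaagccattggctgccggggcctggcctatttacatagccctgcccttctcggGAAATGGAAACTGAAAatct
Isg15 (chr4:156200819-156201068, - strand): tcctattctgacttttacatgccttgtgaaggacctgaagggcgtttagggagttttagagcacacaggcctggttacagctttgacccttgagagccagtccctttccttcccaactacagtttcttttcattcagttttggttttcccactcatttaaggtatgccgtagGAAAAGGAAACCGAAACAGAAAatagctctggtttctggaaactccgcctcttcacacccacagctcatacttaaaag
Igtp has 1 match, Oas1a 2 and Isg15 3, and the match nearest to the start begins 34, 14 and 66 bases before it. Of all 32851 windows of this length in the table, 978 (2.98%) hold a match. Only 23 of the 31 listed interferon genes (74.2%) have an entry, below the 80% required, so a share over the list is void. A match is a description of the sequence and not a measured site.

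The genes of MHC class I presentation, which interferon also controls, were all above 0 as well: 4 of 15 were at least 2-fold higher in SAT CD26, the median was 0.67, and all 15 had a positive difference. Nlrc5, the transactivator of class I genes, was at 30.4 against 5.19 CPM (5.85-fold, interval 4.83 to 7.13), the peptide transporter Tap1 at 65.3 against 26.0 CPM and the immunoproteasome subunit Psmb8 at 46.6 against 18.5 CPM. The heavy chain gene H2-K1 (1083 against 679 CPM) and the light chain gene B2m (1244 against 806 CPM) were higher by less than 2-fold. The class I heavy chains, the Oas genes and the Ifit genes have close copies among which reads may be split, and reads of overlapping genes are uncertain since the strand setting is not given in the sources used here.

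**Figure D4:**
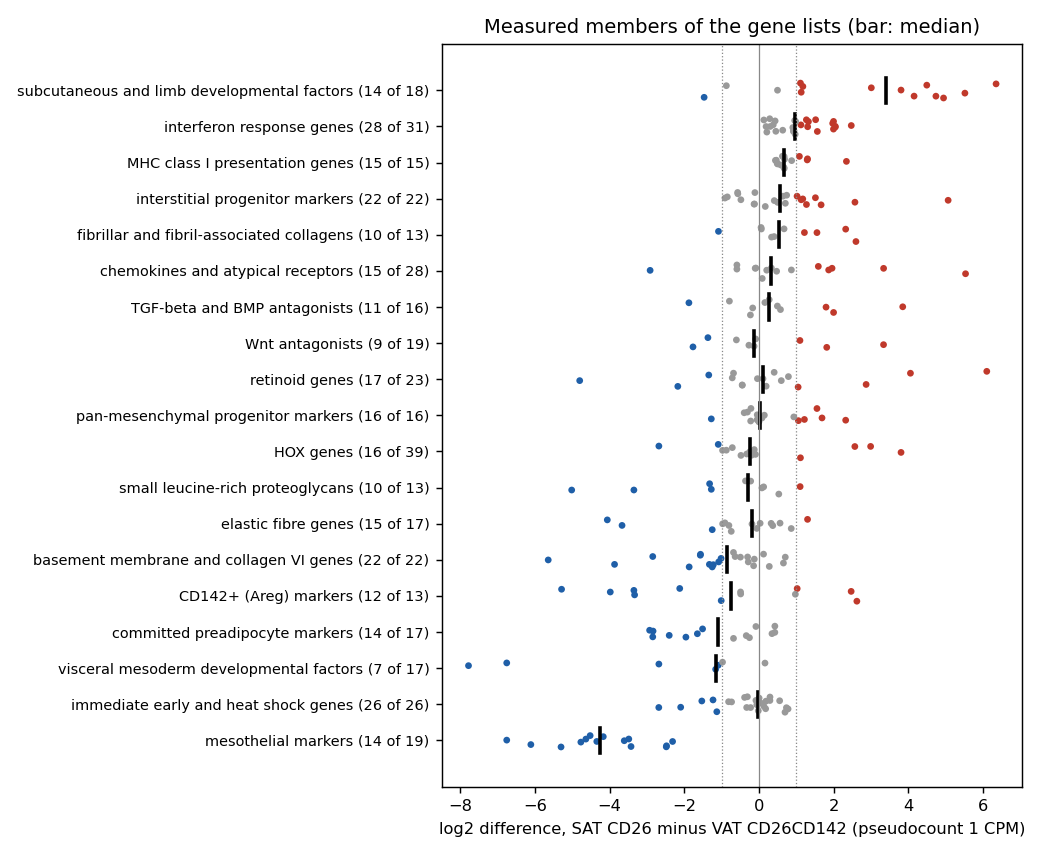
Log2 difference, SAT CD26 minus VAT CD26CD142, of each measured member of 19 gene lists (1 point per gene; red and blue points are at least 2-fold higher or lower; the black bar is the list's median; measured of listed genes in parentheses). The subcutaneous developmental list has a median of 3.40 and the mesothelial list -4.26, while interferon and MHC class I genes lie wholly above 0.

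Of 17 measured retinoid genes 4 were higher in SAT CD26 and 3 lower, with large differences in single steps of the pathway. Adh7, an alcohol dehydrogenase that oxidises retinol, was at 104 against 0.536 CPM (195-fold, interval 114 to 366), with 46.0 CPM in SAT CD142 and under 1 CPM in the VAT CD142 pair. Dhrs9, a retinol dehydrogenase, was at 47.8 against 1.94 CPM and at most 0.215 CPM in the libraries named for CD142. Cyp26b1, which degrades retinoic acid, was at 15.9 against 1.32 CPM. The retinaldehyde dehydrogenases that make retinoic acid differed among themselves. Aldh1a2 had 3 counts in SAT CD26 and 745 in VAT CD26CD142 (0.135 against 30.7 CPM; ratio 227, counting interval 77.4 to 1103), Aldh1a3 was at 623 against 361 CPM and Aldh1a1 at 225 against 308 CPM.

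Of 9 measured genes of the IGF system 2 were higher and 1 lower. Igfbp5, a binding protein that can also bind matrix, was at 4462 against 464 CPM (9.61-fold, interval 9.43 to 9.80) and Igfbp7, a binding protein of vessel walls and matrix, at 266 against 1087 CPM (4.09-fold lower, interval 3.98 to 4.21). Igf1 itself was at 135 against 84.3 CPM. Among growth factors Vegfa, the main angiogenic ligand, was at 368 against 149.9 CPM and its lymphatic relative Vegfc at 3.52 against 17.6 CPM. Fgf7 was at 65.9 against 18.4 CPM. Fgf1, a growth factor induced in adipose tissue by feeding, was at 2.21 against 76.0 CPM (34.4-fold lower, interval 25.9 to 46.7) and under 10 CPM in the other 3 libraries, so that VAT CD26CD142 alone was high. The CCN gene Nov (Ccn3) was at 54.8 against 237 CPM, with at most 5.33 CPM elsewhere. In all, 4 of 20 measured growth factors and CCN genes were higher in SAT CD26 and 5 lower.

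Oxidase genes that make hydrogen peroxide were higher in SAT CD26: Duox1 at 79.2 against 11.7 CPM, its maturation factor Duoxa1 at 30.2 against 12.4 CPM and Nox4 at 109 against 22.5 CPM, 3 of 4 measured. Duox1 and Duoxa1 were near or under 1 CPM in the 3 libraries named for CD142. Of 6 measured Notch pathway genes 3 were lower in SAT CD26 and 0 higher. Lfng, a sugar transferase that modifies Notch, was at 0.677 against 33.9 CPM (50.1-fold, interval 30.2 to 89.9). Notch4 and Notch1 were at 2.17 against 11.1 CPM and 2.93 against 10.9 CPM. Over the 3 members with a mean of at least 20 CPM none was apart and the median was 0.31. Of 8 hedgehog pathway genes, the factor Gli2 (6.81 against 25.1 CPM) and the coreceptor Boc (61.0 against 209 CPM) were lower. The axon guidance ligand Slit2 was at 7.58 against 62.8 CPM (8.29-fold lower, interval 7.06 to 9.78), with 7.31 CPM in SAT CD142 and 65.8 and 115 CPM in the VAT CD142 pair. Its receptor Robo1 was at 31.4 against 63.3 CPM. The neuropilin gene Nrp2, a coreceptor for semaphorins and VEGF, was at 14.1 against 47.3 CPM, and in all 4 of 22 guidance genes were higher and 6 lower.

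Genes of clotting, the pathway that F3 starts, and of fibrinolysis differed in both directions, with 3 of 16 higher and 3 lower. Procr, the receptor for the anticoagulant protein C, was at 889 against 183 CPM (4.87-fold, interval 4.71 to 5.03), with 296 CPM in SAT CD142 and 159.9 and 71.1 CPM in the VAT CD142 pair. F2r, the thrombin receptor, was at 1.35 against 25.2 CPM (18.6-fold lower, interval 12.9 to 27.9), and was at 16.9 CPM or more in the libraries named for CD142. Among membrane and secreted peptidases besides Dpp4, the carboxypeptidase gene Cpz (138 against 21.5 CPM) and neprilysin, Mme (36.3 against 9.52 CPM), were higher in SAT CD26 and in SAT CD142, while Fap, the closest relative of Dpp4, was at 114 against 70.6 CPM. The peptidase list also held angiotensinogen, Agt, lower at 10.1 against 22.8 CPM, and 2 of its 13 measured members were lower.

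Inflammatory mediators and lipid genes completed the lists. Ptgs2, the inducible cyclooxygenase, was at 824 against 334 CPM and Il18, a cytokine of the interleukin 1 family, at 68.3 against 21.3 CPM, both higher in SAT CD26 than in any other library. Tnfrsf11b, osteoprotegerin, was at 8.71 against 46.3 CPM and at most 5.89 CPM in the libraries named for CD142. Il6 (88.1 against 105 CPM) was nearly level. Of 14 measured cytokines and mediators 4 were higher and 1 lower. Among 21 lipid genes, monoacylglycerol lipase, Mgll (223 against 68.6 CPM), and the lipid droplet gene Plin4 (11.0 against 1.36 CPM) were higher, the fatty acid carriers Fabp4 and Fabp5 (1.85 against 10.4 CPM) were lower, and the other 17 lay under 2-fold, such as Fasn at 95.8 against 82.6 CPM.

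Of the most abundant genes that were apart, those not yet described were mainly matrix genes. Aebp1, a collagen-binding matrix protein, was at 3129 against 1395 CPM, Ecm1 at 2815 against 1342 CPM and the secreted glutathione peroxidase gene Gpx3 at 2685 against 1171 CPM. On the other side were the laminin gene Lamb1 (711 against 1698 CPM), the adhesion protein gene Svep1 (415 against 841 CPM) and the glutathione transferase gene Gstm1 (393 against 786 CPM). Each of these 6 differences was at most 2.39-fold, a size that also occurred between the VAT CD142 libraries.

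Lists that describe the general state of the cells were examined last. Of 18 adipogenic and anti-adipogenic factors 0 were higher and 1, Egr2 (15.2 against 103 CPM), was lower, where 8.63% of all measured genes were apart. Cebpb, an early driver of adipogenesis, was at 262 against 259 CPM. Of 26 immediate early and heat shock genes 5 were lower, namely Egr2, Egr3 and the Nr4a genes, and none was higher (4.6% of all measured genes were lower). Among the others, Fos (2283 against 1866 CPM) and Jun (1728 against 1521 CPM) were nearly level. Cell cycle genes had 1 of 13 apart, the cyclin gene Ccnd1, at 63.9 against 8.24 CPM (7.75-fold, interval 6.68 to 9.03) and at 34.2, 7.33 and 7.22 CPM in the libraries named for CD142. Mki67, a proliferation marker, was at 4.24 against 7.91 CPM.

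Whether the depot difference of the CD26 libraries recurred in the CD142 libraries was examined by setting SAT CD142 against each of the 2 VAT CD142 libraries. These comparisons share no library with the CD26 pair. Of 10628 genes measured there, 370 (3.48%) were at least 2-fold higher in SAT CD142 than in both VAT CD142 libraries and 354 (3.33%) lower; of the genes measured in the CD26 pair, 253 (2.43%) and 301 (2.89%) were. Among the 419 genes higher in SAT CD26, 142 were also higher in SAT CD142, which is 33.9% of the first list and 56.1% of the second. Among the 479 lower genes 164 were also lower, 34.2% of the first and 54.5% of the second. Opposite directions occurred in 9 and 11 genes. The shared set held Tbx15, Shox2, Irx1, Il1r2, Mmp3, Cxcl13, Adh7 and Igfbp5 on the SAT side and Wt1, Tcf21, Col6a5, Hp and Cilp on the VAT side.

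The other genes were grouped by whether a single CD26 library stood apart. In 138 of the 419 higher genes (32.9%) and 150 of the 479 lower genes (31.3%), SAT CD26 was at least 2-fold beyond all 4 other libraries, without a shared depot difference. Akr1c18, Itgb7, Bmp3, Duox1 and Pi16 were of this kind on the high side, and Mgp, F3, Bgn and Aldh1a2 on the low side. VAT CD26CD142 stood apart in 16 (3.82%) and 39 (8.14%), with Igfbp3 low and the mesothelial genes Msln and Upk3b, Fgf1 and Nov high. In 122 higher (29.1%) and 125 lower genes (26.1%) no single CD26 library stood apart and the depot difference did not recur in both CD142 comparisons.

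**Figure D5:**
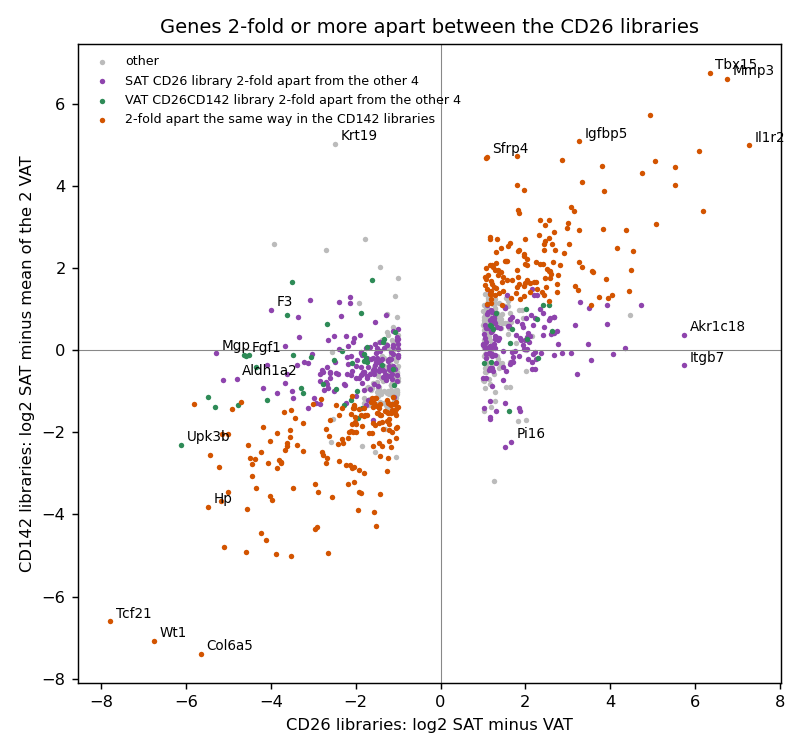
Log2 difference between depots in the CD26 libraries (x axis, SAT CD26 minus VAT CD26CD142) and in the CD142 libraries (y axis, SAT CD142 minus the mean of 2 VAT libraries) for the 898 genes apart in the CD26 pair. Orange points (142 and 164 genes) are apart in the same direction in both gates; purple and green points are genes in which a single CD26 library stands apart, such as Itgb7, Akr1c18 and Mgp near the horizontal line.

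The difference between the depot effects was tested with edgeR's quasi-likelihood test over 15920 genes, with Benjamini-Hochberg adjustment. The fit has 1 residual degree of freedom, from the VAT CD142 pair, and assumes that each lone library varies like that pair. Nothing in the labels says that the pair came from separate mice, so its spread may be technical. The pair also differs in library number and mitochondrial share, so its spread includes that difference. SAT CD142 is numbered 1 while the VAT CD142 group holds both numbers, so library number enters the contrast as well. In all 40 genes (0.251%) passed at an adjusted p of 0.05, 6 (0.0377%) with a larger SAT minus VAT difference in the CD26 libraries and 34 (0.214%) with a smaller one, and 712 had an unadjusted p under 0.05. A negative value below is a SAT minus VAT difference that was lower in the CD26 libraries.

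Aldh1a2 had an interaction of -7.05 on the log2 scale (SE 0.925, adjusted p = 0.00426 with edgeR). It was at 19.4 CPM in SAT CD142 and 29.3 and 34.7 CPM in the VAT CD142 pair, so SAT CD26 was the only library under 1 CPM. Aldh1a3, in contrast, had an interaction of 6.73 (SE 0.929, adjusted p = 0.00569 with edgeR), and there SAT CD142 was the low library at 10.4 CPM against 488 and 786 CPM in the VAT CD142 pair. Itgb7 (7.84, SE 1.11, edgeR adjusted p = 0.00773) was high in SAT CD26 alone. Mgp (-5.56, SE 0.84, edgeR adjusted p = 0.00773) and F3 (-5.21, SE 0.825, edgeR adjusted p = 0.0109) were low in SAT CD26 but high in SAT CD142. Because the gates differ in CD142 between the depots, such genes follow the gate as well as the depot, and both cannot be told apart here.

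Further genes that passed had low or high values in other libraries. Lrrn2, a leucine-rich repeat membrane protein gene, had 1 count in SAT CD26 and 872 in VAT CD26CD142 (interaction -7.18, edgeR adjusted p = 0.00773), and 4.11, 17.1 and 23.2 CPM in the libraries named for CD142. Kcnn3, a calcium-activated potassium channel gene, was at 22.8 against 8.99 CPM and at 0.303 CPM in SAT CD142 against 10.2 and 11.6 CPM. Gfra2, a receptor for neurturin, was at 2.44 against 21.3 CPM, with 10.8 CPM in SAT CD142 and 1.10 and 1.20 CPM in the VAT CD142 pair. Bmp6 and Bmp7 had 0 counts in SAT CD142, so their fitted interactions (9.35 and 8.68) depend on the fit's prior count and give no bound. The same holds for Aldh1a2 and Lrrn2, which had 3 counts and 1 count in SAT CD26. The depot factors themselves did not pass: with edgeR the adjusted p was 1 for Tbx15, 1 for Wt1, 1 for Wnt2 and 0.134 for Tcf21, which does not show that their depot differences are equal in both gates.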

How the data were processed

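The authors deposited raw counts of reads for every Ensembl gene in the 5 libraries, together with a gene length in bases, which is another kind of value, and annotation columns. Per the submitters' processing notes the tools were featureCounts 1.5.0-p3, HISAT2 2.0.5 and CASAVA, with mm10 as the build; the annotation release and the strand setting are not given in the sources used here. Per the labels' protocols, poly(A) RNA was sequenced. No source used here names molecular identifiers, so reads may not be independent molecules.

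Libraries were grouped by library name. Trimmed-mean factors (edgeR 4.0.16, R 4.3.3) came from 15920 genes past filterByExpr with its count minimum set to 10. CPM were compared as log2(CPM + 1). Ratios carry exact conditional and levels exact Poisson intervals at 95% (scipy 1.17.1). A ratio against 0 uses a floor of 3 counts per library. The interaction of depot and gate was tested with robust quasi-likelihood over 4 groups with Benjamini-Hochberg adjustment; its SE is the size of the difference divided by the square root of F. The test was tested on simulated data with known interactions. Alternatives were other scalings, pseudocounts, level minimums, DESeq2 1.42.0, limma-voom (limma 3.58.1) and grouping by title.

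The genes compared and the 48 gene lists were chosen with earlier results of these data known. Genes were named by rule: per direction, the 12 largest differences; the 10 most abundant among those apart; the 10 largest that recurred in the CD142 libraries; and the 6 with the lowest interaction p; and any list member. Genes named by rank are protein-coding and past the level minimum; transcription factors outside the rule were chosen after their values were seen. Dates stood in place of 27 symbols, which were not named, and some genes that the rule picks are not reported here.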

Additional observations from a re-analysis of the deposited data

Results flagged for a closer look

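In 40 genes the SAT minus VAT difference of the CD26 libraries differed from that of the CD142 libraries by edgeR's quasi-likelihood test at an adjusted p of 0.05. The values below are the fitted log2 interactions of those that the text or a gene list names and that are reported here, and a negative value is a lower SAT minus VAT difference in the CD26 libraries. Genes of the Areg list had values of -5.56 for Mgp, -5.21 for F3 and -4.18 for Clec11a, a growth factor gene that reached 492 CPM in SAT CD142 and between 7.89 and 48.6 CPM elsewhere. Matrix genes followed in the same direction, with -4.47 for Fmod and -4.45 for Mfap4. The retinaldehyde dehydrogenase gene Aldh1a3 had a value of 6.73.

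The interaction was 7.84 for Itgb7, 6.49 for Kcnn3 and 4.24 for Sbsn. It was -4.43 for Clu, -4.95 for Fgf1, -5.12 for the Wnt antagonist Dkk3, and -6.34 for Gfra2. Genes with 3 counts or fewer in a library have fitted values that depend on the prior count. These were 9.35 for Bmp6 and 8.68 for Bmp7, each with 0 counts in SAT CD142, -7.05 for Aldh1a2, -7.18 for Lrrn2, -11.13 for Igfbp2, -10.63 for the desmosome gene Dsp, and -13.71 and -12.80 for the keratin genes Krt8 and Krt18. Krt7, another keratin gene, had -10.48 and Gli1, a hedgehog target gene, -4.10; both were under the level minimum in the CD26 pair, as were Igfbp2, Krt8 and Krt18. Krt8 was at 45.8 CPM in SAT CD142, where mammary and skin epithelial markers summed to 101 CPM, and the part of such cells in these values was not tested.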

How the results depend on the processing

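The count of 898 genes at least 2-fold apart ran from 676 to 947 over scaling by DESeq2 size factors, upper quartiles or total counts, pseudocounts of 0.25 and 5 CPM, at least 10 CPM in the higher library, protein-coding genes only, mitochondrially encoded genes left out, and, chosen after seeing the data, genes under 2-fold apart in the VAT CD142 pair. It was 1384 with a mean of at least 1 CPM, 464 with at least 20 CPM, 1491 with no level minimum and, chosen after seeing the data, 138 at 8-fold. Scaling by total counts moved the median of all genes by -0.11 and gave 356 genes higher and 574 lower. With the SAT library taken by its title 2334 genes were apart, 445 of them shared. By title the median turned to -3.80 for interstitial, 2.43 for Areg, 1.61 for preadipocyte and -1.39 for oxidase genes, and the differences to 1.49 for Igfbp7, -5.00 for Pi16, -0.10 for Aebp1, 1.34 for Bgn, 0.18 for Col4a2, -2.37 for Fndc1, 1.91 for Mgp, -1.03 for Itgb7 and -0.70 for Akr1c18. The Notch median was 0.31 with at least 20 CPM, where fewer genes are measured. The 306 genes apart in both gates became 308 with DESeq2 size factors, 345 with a pseudocount of 0.25 CPM and 212 with 5 CPM. Without VAT CD142 replicate 1 there were 423 and without replicate 2 there were 365. Leaving out a library drops a condition, so that count could not fall. The interaction count of 40 was 85 with DESeq2, 10 with limma-voom, 182 with no filter, 101 with a mean of at least 5 CPM and 1053 by title; 39, 9, 34 and 31 genes were shared with DESeq2, limma-voom, the 5 CPM minimum and the titles. Beyond what the settings themselves change, the cause was not tested. Depth limits a level of 0 to below 0.135 CPM in SAT CD26 and 0.124 CPM in VAT CD26CD142. No paired analysis was possible because the CD26 comparison has 1 library a side, both numbered 2, and a block on the number leaves the 4-group fit without residual degrees of freedom. Leaving out either VAT CD142 library does the same, so it gives no test of the interaction.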
